A study of Mus musculus with 4 samples.

Results

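The genes described here encode enzymes of central carbohydrate metabolism: glycolysis, gluconeogenesis, the pentose phosphate pathway and the entry of fructose and galactose. They were chosen by name from a list of 37 genes, through every probe set whose symbol in the platform annotation was a listed gene. Of these, 32 had such a probe set, among 18194 named genes in all. For 31 of them there were 63 ordinary probe sets, and Gapdh was read only through control probe sets. Gpi1, Pfkfb1, Eno1, G6pdx and Galk1 were not analysed here. Expression was measured on 4 single-colour arrays of laser-captured Paneth cells, which sit at the bottom of the crypts of the small intestine and secrete antimicrobial proteins. In 2 samples the mice were Atg16 hypomorphs, which carry an allele of reduced function of the autophagy gene Atg16l1, and in 2 they were wildtype. All were of a mixed C57BL/6 and 129ola strain. The sources used here do not give how the allele was made, the age or sex of the mice, whether animals were pooled, or whether the 2 samples of a group came from separate animals. The p-values therefore rest on the spread between samples that may be technical replicates, and 4 arrays set a limit to the precision. The groups also differed in Xist, the RNA of the inactive X of female cells. Its intensity was 4462 ± 67.9 in hypomorph and 21.8 ± 5.36 in wildtype (SD, n = 2). Sex and genotype therefore cannot be told apart in any difference given below, and the part of sex was not tested.

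Glycolysis splits glucose into pyruvate and yields ATP and NADH, and lactate dehydrogenase can then turn pyruvate into lactate. Gluconeogenesis runs the other way, bypassing the irreversible steps with pyruvate carboxylase, phosphoenolpyruvate carboxykinase, fructose bisphosphatase and glucose 6-phosphatase, and the last of these is typical of liver, kidney and small intestine. The pentose phosphate pathway supplies NADPH and ribose. Pyruvate carboxylase also feeds the export of citrate for fatty acid synthesis, and it is abundant in liver and fat tissue.

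Values are deposited linear intensities, and the median over probe sets lay between 47.4 and 49.6 on the 4 arrays. Each difference is the hypomorph mean minus the wildtype mean of log2(intensity + 32), a scale on which changes of dim genes come out too small. A gene was called when its brightest probe set had a Benjamini-Hochberg adjusted p under 0.05 in limma, over all 22519 probe sets bright enough to test. Intensities of different probe sets are not comparable as amounts of RNA. Atg16l1 was at 966 and 995 in hypomorph against 1335 and 1183 in wildtype (log2 difference -0.35, adjusted p = 0.102), a difference that did not pass the test. Markers of the labelled cell type ranged from very bright to dim. Lyz1, the lysozyme of Paneth cells, read 14829 ± 379 (SD, n = 2) in hypomorph and 15751 ± 382 in wildtype, and 13 of 13 Paneth cell markers with a probe set could be tested, though Kit (48.5 to 74.1 over the 4 arrays) and Sox9 (57.5 to 83.5) were near the level of the brightness filter. Of the 13, Reg3g and Reg3a were called higher in hypomorph (adjusted p = 0.0453 and 0.0379 in limma), and both calls depended on single arrays. Without each array their log2 differences were 0.19 to 0.33 and 0.65 to 1.12. The median log2 difference of the 13 was -0.087. An unadjusted p under 0.05 in limma was reached by 3 that were higher and 2 that were lower, Ang4 (-0.14) and Itln1 (-0.10). Over all genes tested 21.7% reached this level.

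The carbohydrate enzymes called as different between hypomorph and wildtype were both enzymes of gluconeogenesis. Pcx, which encodes pyruvate carboxylase, was 4.89 times as bright in the hypomorph samples, and G6pc, which encodes the catalytic subunit of glucose 6-phosphatase, was 1.90 times as bright. Of 29 genes whose brightest probe set could be tested, these 2 rose and 0 fell. Over all 11577 genes tested, 2.53% were called higher and 1.7% lower (4.23% in all), so 2 of 29 (6.90%) is near the background. An unadjusted p under 0.05 was reached by 8 of the 29, of which 7 were higher and 1, Eno3, was lower, and over all genes the share at this level was 21.7%. The median log2 difference of the 29 was 0.050, against -0.024 over all genes tested. The 2 remaining genes, Pck1 and Pfkfb4, were too dim to test.

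**Figure D1:**
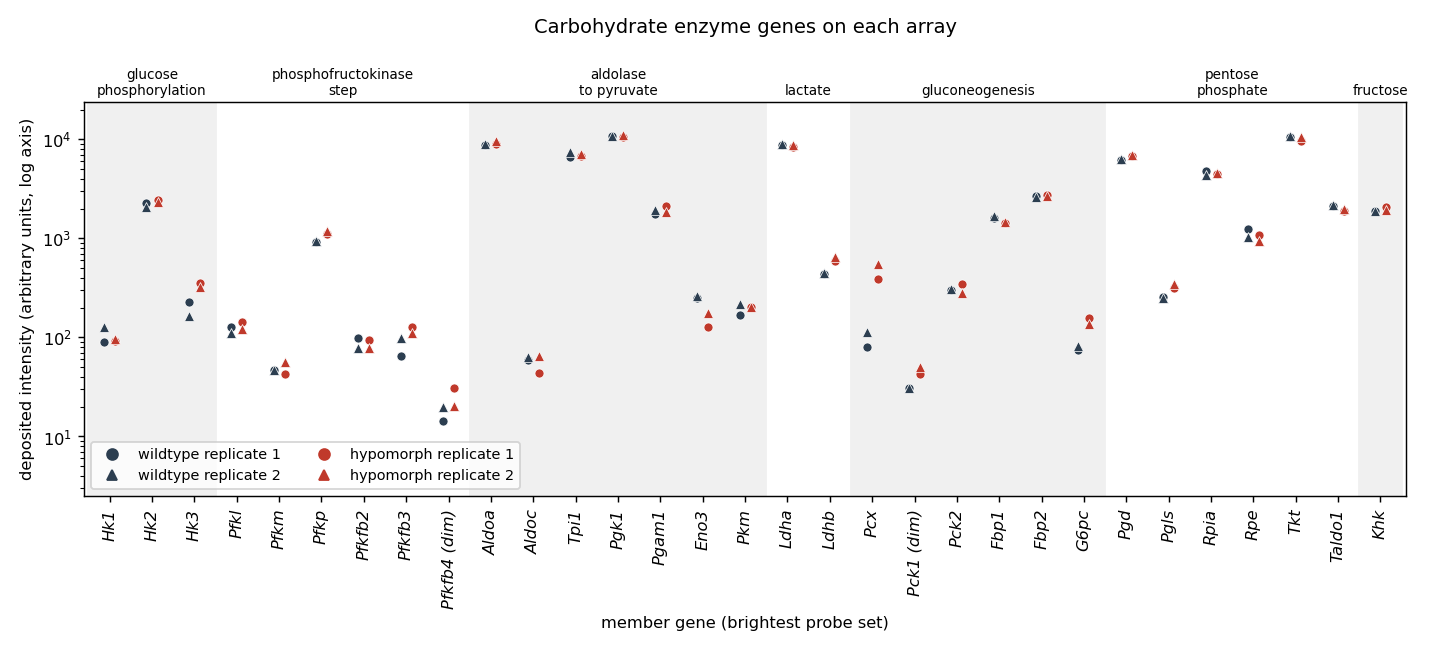
Deposited intensity (log axis) of the brightest probe set of each of 31 genes on the 4 arrays, grouped by step. Blue points are wildtype and red points hypomorph, circles are replicate 1 and triangles replicate 2. Pcx shows the widest gap between groups, with 389.6 and 557 in hypomorph against 80.6 and 113 in wildtype.

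Among the enzymes of gluconeogenesis, Pcx rose. It read 389.6 and 557 in hypomorph against 80.6 and 113 in wildtype. Both hypomorph arrays lay far above both wildtype arrays, and the wildtype values were themselves above the level of the brightness filter, an intensity of 47.7. The log2 difference was 1.96 (SE 0.20, 95% interval 1.515 to 2.41, adjusted p = 0.000535 in limma), and it was between 1.72 and 2.20, and called, without each array in turn. The array also carries control probe sets for Pcx that were left out of the test, placed from the 3' to the 5' end of the transcript. Its 3' control probe set measured 149 and 187 in hypomorph against 60.7 and 50.7 in wildtype. Fitted together with the other probe sets, it had a log2 difference of 1.19 (SE 0.17, adjusted p = 0.00525). It reads the same transcript in the same RNA and is no separate replicate. The control probe set MA, nearer the middle, read 66.1 and 66.1 against 48.9 and 54.9 (log2 difference 0.23, adjusted p = 0.471). The remaining 2, MB and the 5' one, were too dim to test, at 7.73 and 5.35 against 8.03 and 5.60, and at 45.1 and 29.2 against 32.7 and 28.3. The gap between groups was thus seen in the ordinary and the 3' probe sets, and was small or not measurable towards the 5' end. Signal at the 5' end was low for Gapdh too. Its ratio of 3' to 5' signal was 44.2 and 50.0 in hypomorph and 47.6 and 48.8 in wildtype. The part of such a loss of 5' signal in the Pcx values was not tested.

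**Figure D2:**
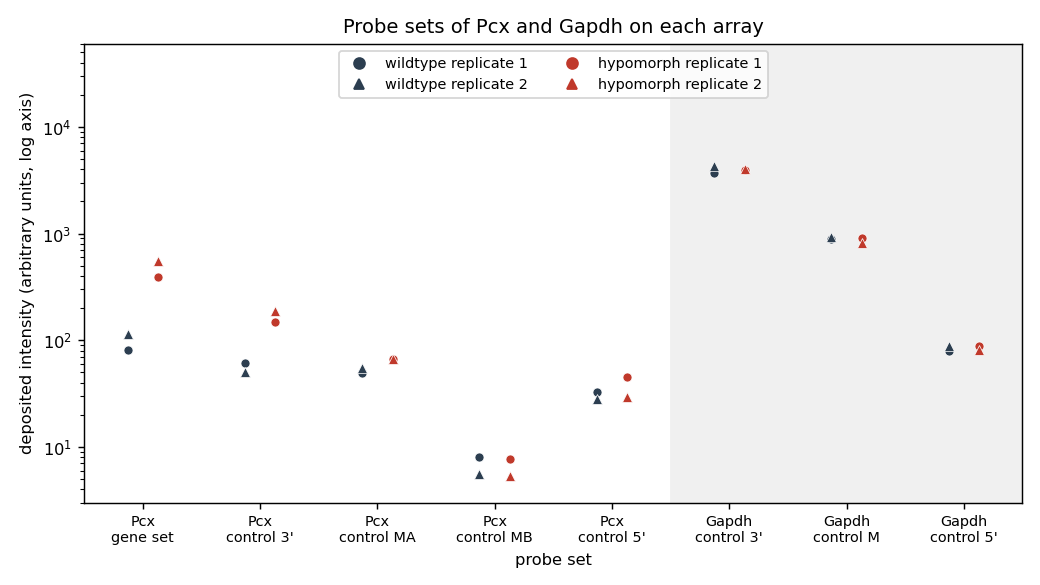
Deposited intensity (log axis) on each array of the ordinary probe set of Pcx, its 4 control probe sets and the 3 of Gapdh. The hypomorph points (red) of the ordinary and the 3' probe sets of Pcx lie above the wildtype points (blue), at 149 and 187 against 60.7 and 50.7 for the 3' one, while those of Gapdh overlap.

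G6pc rose as well, from a dim level. It read 158 and 138 in hypomorph against 74.4 and 81.3 in wildtype, so the groups did not overlap. The log2 difference was 0.71 (SE 0.16, 95% interval 0.34 to 1.08, adjusted p = 0.0458 in limma). This call was close to the threshold. It was lost without hypomorph replicate 1, wildtype replicate 1 or wildtype replicate 2 (adjusted p up to 0.221), and with no brightness filter (adjusted p = 0.155), while the difference stayed between 0.63 and 0.79 without each array.

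The other enzymes of gluconeogenesis were not called. Fbp1 and Fbp2, fructose bisphosphatases, had small differences of opposite sign. Fbp1 was at 1430.1 and 1455 in hypomorph against 1607 and 1669.9 in wildtype, lower on both hypomorph arrays (log2 difference -0.18, 95% interval -0.38 to 0.018, adjusted p = 0.288). Fbp2 overlapped between groups, with a log2 difference of 0.030 (95% interval -0.14 to 0.20). Pck2, the mitochondrial phosphoenolpyruvate carboxykinase, had 2 probe sets with overlapping groups and log2 differences of 0.0095 and 0.23. Pck1, the cytosolic form, read 43.0 and 50.4 in hypomorph against 30.8 and 30.7 in wildtype by its brightest probe set. Its mean log2 value over the 4 arrays was below the level that was tested. The other probe sets of Pck1 were dimmer still, with overlapping groups and log2 differences of -0.14 and -0.079.

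The sequences before the starts of the called genes are shown because these are the 2 that rose. The 250 bases before each start were taken from RefSeq (GRCm38.p6, plus strand), in lower case with matched motifs in capitals. The window of G6pc is chr11:101367466-101367715. For Pcx, RefSeq gives 2 starts, and the upstream one, chr19:4510222-4510471, is shown.

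G6pc: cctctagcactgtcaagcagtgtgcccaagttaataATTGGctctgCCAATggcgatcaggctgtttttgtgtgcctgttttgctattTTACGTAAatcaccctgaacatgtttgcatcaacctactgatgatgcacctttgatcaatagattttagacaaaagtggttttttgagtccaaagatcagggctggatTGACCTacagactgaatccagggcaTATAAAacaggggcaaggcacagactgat
Pcx: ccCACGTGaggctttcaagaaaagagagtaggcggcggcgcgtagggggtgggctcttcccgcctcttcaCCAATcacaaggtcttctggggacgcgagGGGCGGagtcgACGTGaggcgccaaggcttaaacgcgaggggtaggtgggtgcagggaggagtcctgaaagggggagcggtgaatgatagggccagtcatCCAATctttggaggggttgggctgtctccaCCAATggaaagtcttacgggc

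Motifs were searched on both strands. Of the core promoter, these were the TATA box TATAAA, the box named for its letters CCAAT, and the GC box with the letters GGGCGG. The E box was searched as CACGTG, and the core of hypoxia response elements, which this E box contains on both strands, as its letters ACGTG alone. The palindrome TTACGTAA is a site of the cAMP response type. The forkhead core was taken as TGTTTAC, and the single site of nuclear receptors as AGGTCA in either direction. G6pc held TTACGTAA 162 to 155 bases before the start, a match found in 0.113% of 32851 windows of this length. It also held TATAAA (12.4% of windows) 29 bases before the start, CCAAT (33.8%) on each strand and AGGTCA (14%) on the minus strand. Pcx held CACGTG (6.02%) 248 bases before the start, a further ACGTG (16.6% of windows) at 140 bases, GGGCGG (32.7%) and 3 copies of CCAAT, and no TATAAA. The window before its downstream start, chr19:4594069-4594318, matched none of the 8 motifs. TGTTTAC (3.17%) was in none of the 3 windows. These matches describe the letters only, and the arrays do not tell which start was used.

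Markers of fat cells and of absorptive enterocytes moved with the same contrast. Of the fat cell markers, 15 of 18 had a probe set, 12 were bright enough to test and 9 of these rose, also without each array in turn. The summed intensity of the 15 was 34055 to 34160.3 in hypomorph and 11370.3 to 11532 in wildtype. Adipoq, the fat cell hormone adiponectin, was at 678 ± 3.10 (SD, n = 2) against 105 ± 5.81. Not all of the fat cell list was high, since Lipe, Cidea and Retn were too dim to test and Pparg was at 256 ± 29.2 against 282 ± 2.95. Of the enterocyte markers 7 of 16 tested rose, and the summed intensity of the 18 with a probe set was 31542 to 32676 against 22311 to 23114. The intensity of Apoa4, which encodes a protein of lipoprotein particles, was 1837 ± 33.4 in hypomorph and 421 ± 43.3 in wildtype. In bulk samples a different number of cells of a type and a different RNA content per cell cannot be told apart. Markers of other cell types differed too. Of the fibroblast markers 4 of 12 tested rose (1 to 3 without single arrays), with summed intensities of 37233 to 38798 in hypomorph and 33178 to 33628 in wildtype. Col1a1, a collagen gene, was at 642 and 631 against 333 and 339 and stayed called without each array. Of the enteroendocrine markers 4 of 10 tested fell (2 to 4 without single arrays), with summed intensities of 10376 to 10789.7 against 13164 to 14164. The hormone genes Gip and Gcg had log2 differences of -1.12 and -0.52, and both stayed called without each array. Of the enteric neuron and glia markers 1 of 5 tested was called. This was Vip, a neuropeptide gene of enteric neurons, at 3412 and 4113 against 2271 and 2119. Its log2 difference was 0.76, and 0.63 to 0.90 without each array. Nos1 (0.47), Ret (0.26), Sox10 (0.088) and Elavl4 (-0.048) were not called. Among the dim ones Tubb3, Uchl1 and Gfap were lower on both hypomorph arrays, and S100b overlapped between groups. The part of all these markers in the values of Pcx and G6pc was not tested.

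The hexokinases, which phosphorylate glucose to start its use, gave no call in 3 genes tested. At an unadjusted p under 0.05, a level reached by 21.7% of all genes tested, there was 1. That was Hk3, at 355 and 323.5 in hypomorph against 227 and 166 in wildtype, with both hypomorph arrays above both wildtype arrays. Its log2 difference of 0.71 (SE 0.17, 95% interval 0.34 to 1.09) missed the threshold narrowly (adjusted p = 0.0502 in limma). It passed without hypomorph replicate 2 (adjusted p = 0.0441) and without wildtype replicate 1 (0.0321), and also with a robust prior (0.0378) and the larger pseudocount (0.0481). The mean of its probe sets gave 0.35 (adjusted p = 0.169). The brightest probe set carries the suffix x, which on this type of array marks sets with probes that also match other transcripts, so its identity is less certain. The other probe set of Hk3 was too dim to test, at 42.2 and 24.3 against 33.1 and 33.9, and did not show the gap. Hk2, the insulin-responsive form, was at 2444 and 2359 against 2296 and 2084 (log2 difference 0.13, 95% interval -0.055 to 0.32, adjusted p = 0.407). Hk1, the form found in most tissues, overlapped between groups, with a log2 difference of -0.14 (95% interval -0.54 to 0.26).

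At the phosphofructokinase step, the main control point of glycolysis, 0 of 5 genes tested were called. An unadjusted p under 0.05 was reached by 2, both higher, where the share over all genes tested was 21.7%. Pfkp, the platelet-type subunit, was at 1117 and 1194 in hypomorph against 928 and 934 in wildtype. All hypomorph values were above the wildtype ones, and the log2 difference was 0.30 (SE 0.10, 95% interval 0.075 to 0.53, adjusted p = 0.136). Pfkl and Pfkm, the liver and muscle subunits, overlapped between groups, with log2 differences of 0.13 and 0.050. The bifunctional enzymes that set the level of fructose 2,6-bisphosphate, the activator of this step, were dim. Pfkfb3 read 127 and 112 against 65.1 and 98.3 by its brightest probe set (log2 difference 0.43, adjusted p = 0.240), whereas the other gave -0.055, with overlapping groups. The value of 0.43 became 0.21 without wildtype replicate 1 and 0.64 without wildtype replicate 2. Pfkfb2 had a log2 difference of -0.025 by its brightest probe set, with overlapping groups. Its 3 dimmer probe sets were not tested, and in each both hypomorph arrays were above both wildtype arrays (0.16, 0.16 and 0.19). They read 46.4 and 56.8 against 41.6 and 43.7, 25.4 and 19.7 against 17.5 and 16.3, and 5.59 and 6.77 against 1.97 and 1.00. The last lies at the floor of the values. Of all probe sets tested, 21.8% were higher without overlap. Pfkfb4 read between 14.3 and 31.0 on all arrays.

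Of the enzymes from aldolase to pyruvate 0 of 7 were called. Aldoa, Tpi1, Pgk1 and Pgam1 were bright, whereas Aldoc, Eno3 and Pkm were dim and have wide intervals. The gene at an unadjusted p under 0.05 was Eno3, which encodes the enolase typical of muscle. It measured 129 and 176 in hypomorph against 248 and 259 in wildtype, below them on both arrays. The log2 difference was -0.64 (SE 0.17, 95% interval -1.03 to -0.26, adjusted p = 0.0725), and it was called only without hypomorph replicate 2 (adjusted p = 0.0224) among the fits that left out an array. Muscle markers were measured beside it: 1 of 10 tested was called, Synm, which was higher in hypomorph and was lost without each array. Acta2, the smooth muscle actin, was lower on both hypomorph arrays (log2 difference -0.19, adjusted p = 0.169), as were Tagln, Cnn1, Smtn and Ckm among those tested and the dim Mb and Myh4. Mylk went the other way, higher on both hypomorph arrays (log2 difference 0.058). Des (0.17), Actg2 (0.029) and Myh11 (-0.079) overlapped between groups. The median log2 difference of the 10 was -0.076, and the summed intensity of the 14 was 14208 to 14740.5 in hypomorph against 14558 to 15657 in wildtype. Their part in the value of Eno3 was not tested.

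Pgk1, phosphoglycerate kinase, was at 10537 and 11049 in hypomorph against 10845 and 10849.5 in wildtype, with overlapping groups. Its 3 probe sets gave log2 differences of -0.0076, -0.020 and -0.062, the first with a 95% interval of -0.11 to 0.099. Pgk1 lies on the X chromosome, and the groups differed in Xist, the RNA of the inactive X of female cells (4462 ± 67.9 in hypomorph and 21.8 ± 5.36 in wildtype, SD, n = 2). Tpi1, triose phosphate isomerase, had log2 differences of -0.019, -0.0086 and 0.069 in 3 probe sets, all with overlapping groups. Pgam1, phosphoglycerate mutase, gave 0.11 (95% interval -0.11 to 0.33), Pkm, pyruvate kinase, 0.070 (-0.30 to 0.44) and Aldoc, the brain aldolase, -0.12 (-0.52 to 0.28).

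Aldoa, the main aldolase of most tissues, had 5 probe sets, and on 4 of them both hypomorph arrays were above both wildtype arrays. Over all probe sets tested, 21.8% were higher without overlap. The brightest read 9023 and 9746 against 8733 and 8956 (log2 difference 0.084, 95% interval -0.038 to 0.21). The probe set at 1970.4 and 1720.1 against 1198 and 1525 gave 0.44 (adjusted p = 0.0865), and the next brightest after the first gave -0.021. The probe sets of Aldoa therefore did not give 1 size of difference. All 5 carry the suffix x. This suffix applied to 15 of the 49 tested probe sets of the carbohydrate enzymes.

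Gapdh, the dehydrogenase often used as a reference gene, was read by 3 control probe sets. The 3' one was at 3920.3 and 4024 in hypomorph against 3733 and 4267 in wildtype, the middle one at 916 and 811 against 887 and 923, and the 5' one at 88.7 and 80.4 against 78.5 and 87.5. In each the groups overlapped, with log2 differences of -0.0069, -0.068 and 0.020. The ratio of the 3' to the 5' signal, a sign of how much of the transcript was copied, was 44.2 and 50.0 in hypomorph and 47.6 and 48.8 in wildtype for Gapdh. For the actin gene Actb it was 17.7 and 19.3 against 25.7 and 22.3, lower on both hypomorph arrays, and its part in the differences given here was not tested.

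Lactate dehydrogenase is a tetramer of subunits A and B, of which A predominates in muscle and B in heart. Ldha was at 8353 and 8824 in hypomorph against 8842 and 8892 in wildtype, with a log2 difference of -0.047 (SE 0.052, 95% interval -0.16 to 0.070, adjusted p = 0.656). Ldhb was higher on both hypomorph arrays in all 4 of its probe sets. By the brightest it was at 586 and 654 against 442 and 452, a log2 difference of 0.44 (SE 0.13, 95% interval 0.16 to 0.72, adjusted p = 0.0860), which did not pass the test. The others gave 0.36, 0.59 and 0.57, and the mean of the 4 was called (0.49, adjusted p = 0.0322). The probe set at 381 and 402 against 237 and 260.5, with the difference of 0.59, was called (adjusted p = 0.0495). Of the 49 tested probe sets of the carbohydrate enzymes 3 were thus called higher, against 2.04% of all probe sets tested (3.71% in either direction). Among them the call of Ldhb was the only 1 of a probe set that did not stand for its gene. It was lost without each array in turn (adjusted p of 0.0788 to 0.231). The 4 probe sets share the same RNA and are no replicates of each other. Whether Ldhb differed more than Ldha was not tested.

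**Figure D3:**
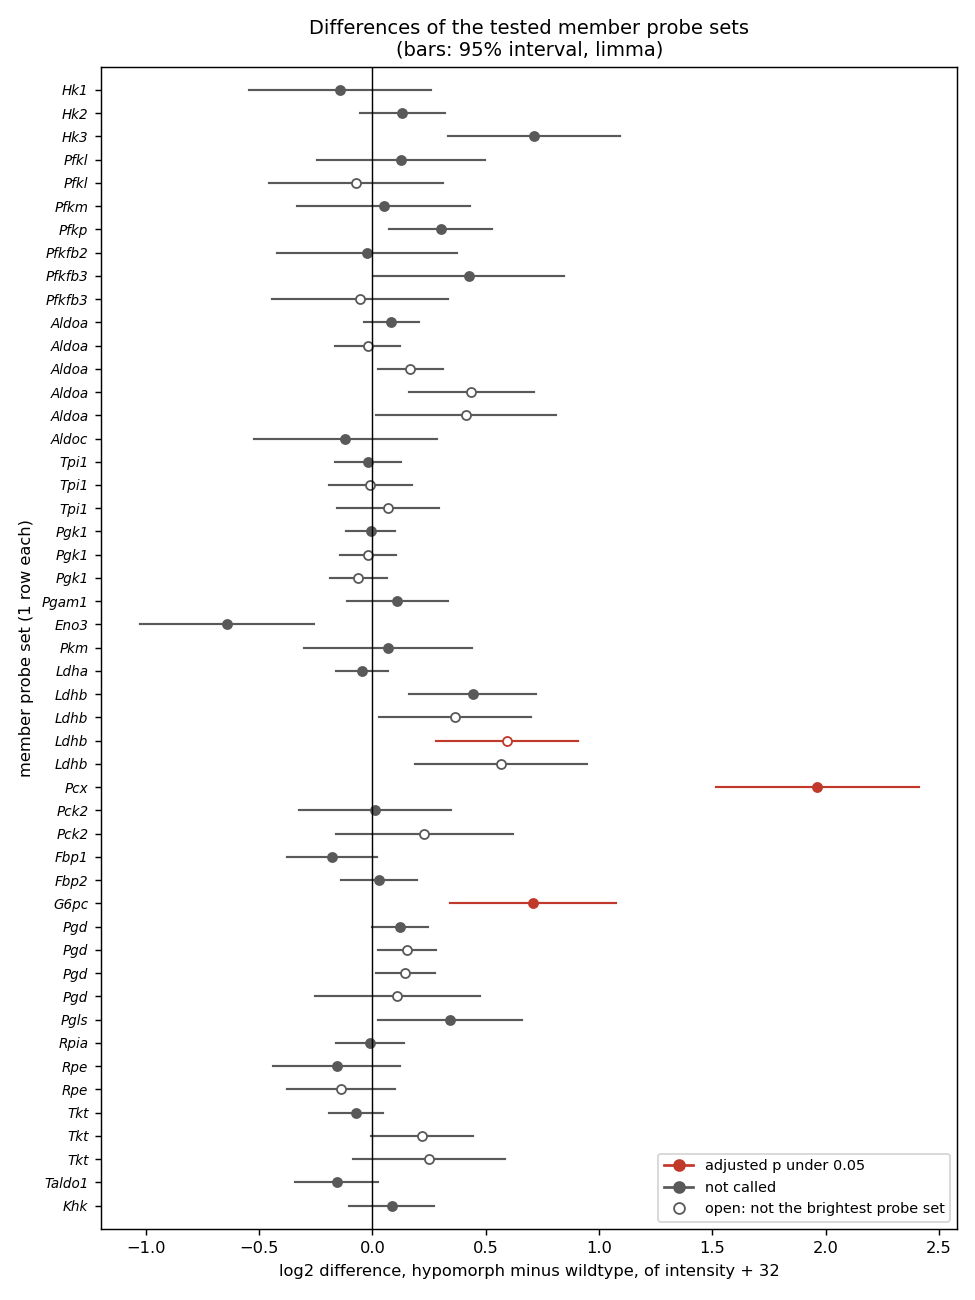
Log2 difference (hypomorph minus wildtype, of intensity + 32) of the 49 tested probe sets, 1 row each, with bars for the 95% interval from limma. Filled points are the brightest probe set of a gene, open points its others, and red marks an adjusted p under 0.05. Pcx at 1.96 stands apart, the 4 points of Ldhb lie between 0.36 and 0.59, and Eno3 is at -0.64.

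The pentose phosphate enzymes gave 0 calls in 6 genes tested. An unadjusted p under 0.05 was reached by 1, which was higher, where the share over all genes tested was 21.7%. Pgd, the dehydrogenase that makes NADPH in the second oxidative step, had log2 differences of 0.12, 0.15, 0.15 and 0.11 in 4 probe sets. Its brightest probe set read 6735 and 6958 in hypomorph against 6224 and 6364 in wildtype, a small gap without overlap (95% interval -0.0030 to 0.24, adjusted p = 0.255). Pgls, the lactonase before it, was at 316 and 343 against 257 and 249 (log2 difference 0.34, SE 0.14, adjusted p = 0.210), higher on both hypomorph arrays. In the branch that interconverts sugars, Taldo1, transaldolase, was at 1889 and 1971 against 2114 and 2199, below wildtype on both arrays (log2 difference -0.16, 95% interval -0.34 to 0.026, adjusted p = 0.314). Tkt, transketolase, had probe sets that disagreed in sign. The brightest gave -0.074 (95% interval -0.19 to 0.045) and the others 0.22 and 0.25, higher without overlap. Rpia and Rpe, the isomerase and epimerase of the pentose phosphates, gave -0.0090 (95% interval -0.16 to 0.14) and -0.16 (-0.44 to 0.12). Khk, the ketohexokinase that starts the use of fructose, was at 2076 and 1956 against 1885 and 1910.4, with a log2 difference of 0.085 (-0.10 to 0.27).

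The precision differed between bright and dim genes. For 9 of the 29 genes, namely Aldoa, Tpi1, Pgk1, Ldha, Fbp2, Pgd, Rpia, Tkt and Khk, the 95% interval lay within 0.3 of 0 on the log2 scale by the brightest probe set. For the others, larger differences were not excluded by their intervals. By the brightest probe sets, the groups did not overlap in 11 genes that were higher and 4 that were lower in hypomorph, 15 of 29, where 23.4% and 30.0% of all genes tested did so. Of 10 genes with several tested probe sets, 3 had differences above 0 in all of them (Ldhb, Pck2 and Pgd) and 2 below 0 in all (Pgk1 and Rpe).

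Other genes of the pathway came from lists of transporters, further enzymes and regulators, with a list of genes outside glycolysis that respond to hypoxia. Of 113 tested in these 8 lists, 6 rose and 2 fell, against the background of 2.53% and 1.7%, and their median log2 difference was -0.026. Pdk4, the kinase that switches off pyruvate dehydrogenase and so spares pyruvate, fell from 481 and 527 in wildtype to 165 and 167 in hypomorph. The groups were far apart (log2 difference -1.44, SE 0.14, adjusted p = 0.00042), and the call held without each array in turn. It was the only call of 13 tested genes of pyruvate entry into mitochondria. Within that list Dlat and Pdha1, subunits of pyruvate dehydrogenase, had log2 differences of 0.29 (adjusted p = 0.119) and -0.20 (adjusted p = 0.152), and Mpc1, of the pyruvate carrier, 0.21 (adjusted p = 0.307).

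In the list of the glycerol phosphate shuttle and NADPH 2 of 11 tested genes rose, in that of glycogen 1 of 12, and in that of other enzymes of the carbohydrate steps 1 of 12. Gpd1, which makes glycerol 3-phosphate from a glycolytic intermediate, was at 3036 and 3383 in hypomorph against 2236 and 2574 in wildtype (log2 difference 0.41, adjusted p = 0.0407), and leaving out hypomorph replicate 2 or wildtype replicate 1 ended the call. Me1, the cytosolic malic enzyme and a source of NADPH, was at 127.9 and 111 against 62.8 and 57.5 (log2 difference 0.72, adjusted p = 0.0458). Pygl, the liver-type glycogen phosphorylase, was at 279 and 283 against 162 and 143 (log2 difference 0.77, adjusted p = 0.0242). The calls of Me1 and Pygl were each kept only without hypomorph replicate 2. Hkdc1, a protein related to the hexokinases, was at 879.8 and 890.3 against 581 and 657 (log2 difference 0.50, adjusted p = 0.0471), and lost its call without each array in turn. Pklr, the liver pyruvate kinase, was not called, at 653 and 612 against 498 and 448 (log2 difference 0.40, adjusted p = 0.115). The fat cell and enterocyte markers given above moved with these genes too, and their part was not tested.

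Transporters and regulators gave no call. Of 12 tested transporters of glucose and lactate 0 were called, and an unadjusted p under 0.05 was reached by 2 that were higher and 2 that were lower. Over all genes tested 21.7% reached this level, which applies to each list in this paragraph. Slc5a1, the sodium-dependent glucose carrier of the brush border, was at 4982 and 5014 in hypomorph against 4673 and 4290.3 in wildtype (log2 difference 0.16, adjusted p = 0.218), and the fructose carrier gene Slc2a5 at 154 and 162 against 125 and 103 (0.39, adjusted p = 0.218). Slc16a7, a monocarboxylate carrier, and Slc2a3, a glucose carrier, gave -0.35 (adjusted p = 0.230) and -0.42 (adjusted p = 0.239), with both hypomorph arrays below both wildtype arrays. Of 29 tested regulators 0 were called, and 1 that was higher and 4 that were lower reached an unadjusted p under 0.05. Ppargc1a, a coactivator of gluconeogenic and mitochondrial genes, was at 466 and 379.5 against 584 and 642 (log2 difference -0.51, adjusted p = 0.0781), lower on both hypomorph arrays. Akt2, a kinase of insulin signalling, gave 0.54 (adjusted p = 0.0960), Egln3, an oxygen-sensing hydroxylase, -0.43 (adjusted p = 0.116), and Hnf4a, a transcription factor of liver and gut epithelium, -0.16 (adjusted p = 0.143). Hif1a, the hypoxia-inducible factor, was at 1887 and 2165 against 2480.3 and 2378 (-0.26, adjusted p = 0.146). Of 13 genes known to respond to hypoxia 2 rose, Stc2 at 826 and 789 against 446 and 444 (log2 difference 0.81, adjusted p = 0.00448) and Adm at 177 and 188 against 109 and 89.4 (0.71, adjusted p = 0.0458). P4ha1, a prolyl hydroxylase of collagen, fell from 237 and 266 to 86.5 and 150.1 (-0.95, adjusted p = 0.0393). Ddit4 was not called, at 1451 and 2009 in hypomorph against 2280 and 2760 in wildtype (-0.55, adjusted p = 0.0697 in limma). In this list 3 that were higher and 3 that were lower reached an unadjusted p under 0.05. Without single arrays Stc2 stayed called, Adm was lost in each case and P4ha1 was called only without hypomorph replicate 2. A dimmer probe set of P4ha1 ran the other way, and of the 2 dimmer ones of Stc2 1 overlapped between groups. In the list named for fructose, galactose and sorbitol 0 of 11 tested genes were called, and none of the 11 encodes an enzyme of sorbitol. An unadjusted p under 0.05 was reached by 3 that were higher (Galm, Gmppb and Gfpt2) and 1 that was lower. The lower one was Gne, an enzyme of sialic acid synthesis, at 1232 and 1199 against 1522 and 1737 (log2 difference -0.41, adjusted p = 0.0546).

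**Figure D4:**
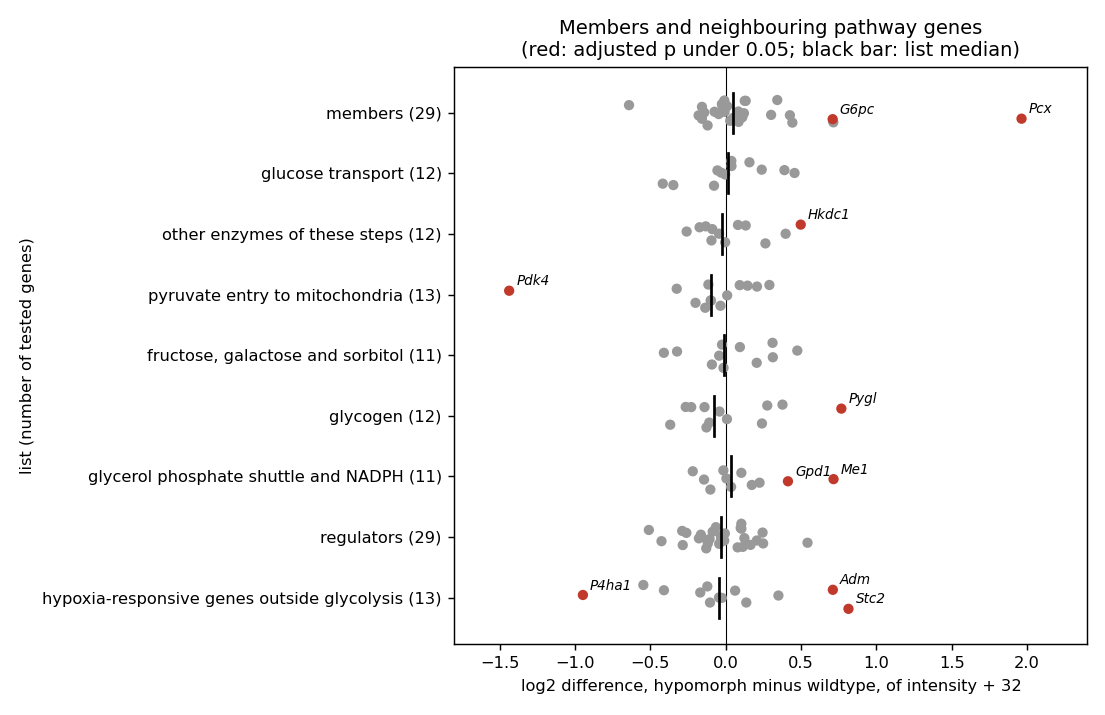
Log2 difference (hypomorph minus wildtype, of intensity + 32) of the 29 carbohydrate enzyme genes and of the tested genes of 8 neighbouring lists, 1 point per gene, with the median of each list as a black bar. Red points are called genes; Pcx (1.96) and Pdk4 (-1.44) lie farthest from 0, and the list medians lie between -0.098 and 0.050.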

How the data were processed

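RNA of the laser-captured cells was amplified and labelled with biotin using the RiboAmp kit, per the labels' protocols. The authors deposited 1 linear intensity per probe set and array. How they were scaled, background-corrected and summarised is not given in any source used here. Trimmed means of the arrays lay within 1.02 times of each other, and no further normalisation was applied. Of 45101 probe sets 64 controls were left out, and only the 34945 others with 1 gene symbol were named, from the platform annotation. The gene IDs of 34741 were found in RefSeq (GRCm38.p6), which changed 0 symbols.

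Values were tested as log2(intensity + 32), for probe sets at or above the median mean log2 value (6.32), with limma 3.58.1 in R 4.3.3 (lmFit, and eBayes with an intensity trend). The group was the only term, all 4 arrays entered, and residual and prior degrees of freedom were 2 and 7.81. The brightest probe set stood for a gene. On simulated data for this comparison (22519 probe sets, of which 67, 67 and 66 changed by log2 0.5, 1 and 2), it recovered 17.9%, 80.6% and 100% of them, with 6 false calls. The genes and lists were chosen with earlier results of these data known. Every enzyme gene with a probe set is accounted for. Of the neighbouring lists, called genes were named first, then those with the smallest unadjusted p, up to 4 per list, of which not all are printed. Pparg, Lyz1, Hif1a, Xist and the choice of marker examples were picked after their values were seen.

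Alternatives were quantile normalisation, median centring, pseudocounts of 1 and 128, no filter and one at the 75th percentile, no trend, a block for the replicate number, averaging the probe sets of a gene, a robust prior, and each array left out. Keeping the control probe sets in the fit was added after seeing the data.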

Additional observations from a re-analysis of the deposited data

How the results depend on the processing

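Of the single-gene differences under the alternatives, 385 kept direction and side of the threshold, 6 lost a call, 10 gained one and 17 changed sign, all 17 of genes that were not called. The call of Pcx held in every alternative in which it was bright enough to test. That of G6pc was lost with median centring (adjusted p = 0.0533), with no filter (0.155), with no intensity trend (0.0595) and without 3 of the arrays.

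Enzyme genes called higher numbered 2. They numbered 1 with median centring, with no filter and with no trend, 0 with the filter at the 75th percentile, which neither Pcx nor G6pc passed, and 4 with the replicate number as a block. They numbered 3 with the larger pseudocount and with a robust prior, where Hk3 was added, and with the mean of all probe sets, where Ldhb was. Without each array in turn they numbered 1 to 3. Genes called lower numbered 0, and 1 (Eno3) with the replicate block and with the mean of all probe sets, and 0 to 1 without each array. The median difference of 0.050 became 0.077 and 0.029 with the smaller and the larger pseudocount, 0.070 with no filter, 0.020 with the stricter filter, 0.11 with the mean of all probe sets, 0.040 with control probe sets included, and 0.039 to 0.077 without each array. It was 0.044 with median centring, where 4 neighbouring genes were called higher. Neighbouring genes called higher numbered 6, and 1 with no filter, 3 with the stricter filter, 2 with no trend, 11 with the replicate block, 1 with the mean of all probe sets and 2 to 4 without each array. Those called lower numbered 2, and 1, 1, 1 and 9 under the first 4 of these and 1 to 5 without each array. Over all probe sets the calls went from 836 to 303 with no filter, 323 with no trend, 556 with the stricter filter, 3206 with the block, and 1648 without hypomorph replicate 2. The causes were not tested, except that the stricter filter tests fewer genes.

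Signs changed for 9 genes. With quantile normalisation Rpia became 0.0057, Pfkfb2 0.0025 and Pgk1 0.042, and with the mean of all probe sets Tkt became 0.13 and Tpi1 0.014. Without each array in turn the differences ranged from -0.067 to 0.049 for Rpia, -0.12 to 0.14 for Pck2, -0.042 to 0.027 for Pgk1, -0.29 to 0.055 for Aldoc, -0.10 to 0.063 for Tpi1, -0.16 to 0.11 for Pfkfb2, -0.091 to 0.23 for Pkm and -0.33 to 0.042 for Hk1.

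The replicate numbers are shared between groups by the labels only. Deviations of same-numbered arrays correlated at 0.26 across probe sets, and with 2 pairs this cannot show pairing. The block leaves 1 residual degree of freedom, and Hk3, Ldhb and Eno3 were called with it (adjusted p = 0.00014, 0.0112 and 0.00152). When an array was left out, the lone array of its group was assumed to vary like the other group. With 2 arrays per group the spread rests mainly on what is shared across probe sets, and dim probe sets near the floor were not tested.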
